A study of Pongo abelii with 8 samples.

Results

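Muscle actins and their partners in the contractile apparatus were followed through reprogramming in 10 genes. The genes were ACTA1, ACTC1, TNNT1, ACTA2, TAGLN, CNN1, MYL9, TPM1, TPM2 and CALD1. They are 10 of the 11963 genes with a probe set of their own, and were read by 22 of the 22277 probe sets of the array, namely every probe set to which the platform annotation gives 1 of these symbols and no other. The genes were chosen on their difference between iPSCs and fibroblasts in these arrays. Their levels in the 2 cell types are therefore given as a description with no test, and tests were kept for the comparison of the donors and for other genes.

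Gene expression had been measured to compare induced pluripotent stem cells (iPSCs) with the skin fibroblasts they were made from, in Sumatran orangutans. RNA of 8 cultures was measured on Affymetrix arrays with probes for human transcripts, 1 culture per array and 1 colour. The 6 iPSC arrays held 3 colonies from KB10973, a male aged 29 years, and 3 colonies from KB10460, a female aged 43 years. The 2 fibroblast arrays held 1 dermal culture from each animal, and both animals were labelled as healthy controls. The colonies were made from these fibroblast cultures with retroviruses that carried human OCT4, SOX2, KLF4 and c-MYC, which insert into the genome. The fibroblasts came from skin biopsies of the upper limb and were grown with fetal bovine serum, while the iPSCs arose on a feeder layer of mouse embryonic fibroblasts and were grown with a serum replacement. Values are log2 expression values after RMA, so that a difference of 1 is a doubling of signal. The array medians lay between 3.74 and 3.82, and values under 5 are called low here. The deposited table holds no detection call.

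In muscle, actin filaments slide past myosin when calcium releases a brake on the thin filament. In striated muscle that brake is troponin on tropomyosin, whereas smooth muscle is switched on mainly by phosphorylation of the myosin regulatory light chain, with calponin and caldesmon as modulators on the actin filament. Many of these genes are targets of serum response factor (SRF), and fibroblasts in culture use the smooth-muscle type members in their stress fibres.

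The labels were checked with marker genes. All 5 iPSC markers with a probe set of their own (LIN28A, DNMT3B, L1TD1, SOX2, NANOG) were higher in iPSCs with limma. POU5F1 and TDGF1 had no probe set annotated to their symbol alone and were not read. Of 9 skin fibroblast markers, 8 were lower in iPSCs, and THY1, a surface antigen of fibroblasts and of human pluripotent cells, was higher by 2.79. The mean level of the fibroblast markers was 4.55 to 5.08 in the iPSC arrays, against 9.18 to 9.64 in the fibroblast arrays. Decorin (DCN), which fibroblasts secrete in bulk, lay between 3.75 and 3.82 in the 6 iPSC arrays, against 12.45 in both fibroblast arrays.

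All 3 striated-muscle genes had a high signal in every iPSC colony. ACTA1, the alpha actin of adult skeletal muscle, had a lowest value of 9.52, a median of 10.16 and a highest value of 10.41 in the iPSCs, against 2.83 in KB10973 fibroblasts and 3.33 in KB10460 fibroblasts. All colonies thus lay far above fibroblast values that were low. The mean was 10.09 ± 0.30 (SD, n = 6) in iPSCs and 3.08 ± 0.35 (SD, n = 2) in fibroblasts, a difference of 7.01 or 129-fold. Array values flatten out near background, where a fold understates a change. In a culture, fewer cells that express a gene and less RNA per cell cannot be told apart.

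ACTC1, the alpha actin of the heart that embryonic skeletal muscle also uses, ran at 8.05, 8.99 and 9.93 (lowest, median, highest) in the iPSCs, against 5.55 in KB10973 fibroblasts and 5.76 in KB10460 fibroblasts. No colony overlapped the fibroblasts, and the mean difference was 3.37. Its spread between colonies was wide, with an SD of 0.79 (n = 6), larger than that of 98.8% of probe sets with an iPSC mean of at least 5. TNNT1, the tropomyosin-binding troponin T of slow skeletal muscle, was at 8.88, 9.04 and 9.26 in the iPSCs, against 4.89 in KB10973 fibroblasts and 4.87 in KB10460 fibroblasts. The colonies were tightly grouped (SD 0.16, n = 6) and lay 4.18 above the fibroblast mean.

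**Figure D1:**
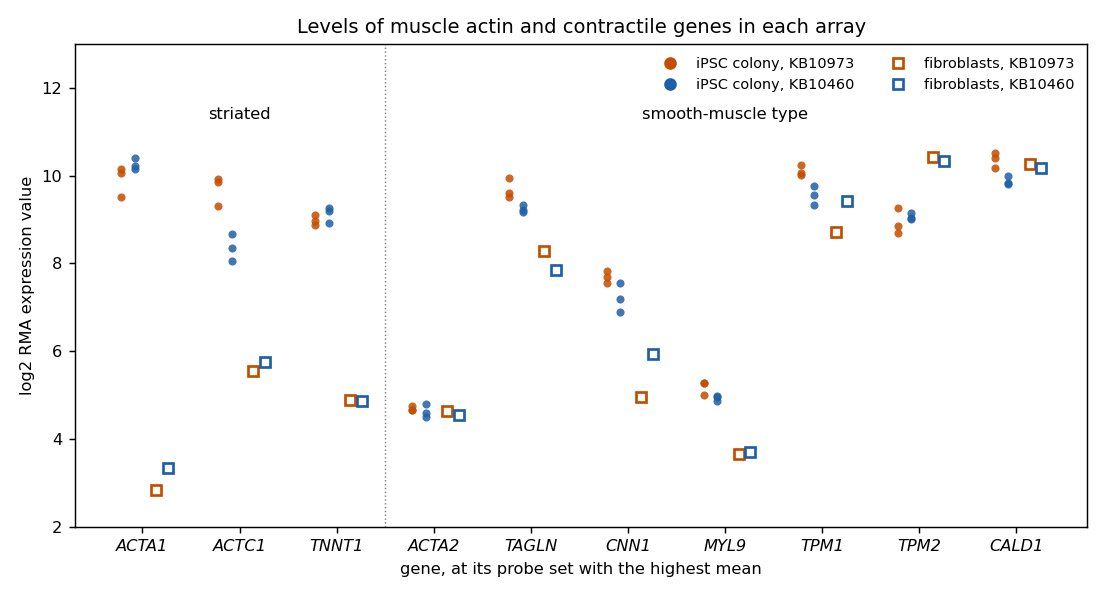
Log2 RMA value in each array (vertical axis) for the 10 genes (horizontal axis), each at the probe set whose mean is highest. Filled circles are the 6 iPSC colonies, open squares the 2 fibroblast cultures, orange KB10973 and blue KB10460; ACTA1, ACTC1, TNNT1, TAGLN, CNN1 and MYL9 lie above the fibroblasts in every colony, TPM2 lies below them, and ACTA2, TPM1 and CALD1 overlap.

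The 7 smooth-muscle type genes were mixed. ACTA2, the alpha actin of vascular smooth muscle and of activated fibroblasts, was low in both cell types at both of its probe sets. At 200974_at it was at 4.51, 4.65 and 4.79 in the iPSCs, against 4.64 in KB10973 fibroblasts and 4.55 in KB10460 fibroblasts. At 215787_at it was at 2.94, 3.00 and 3.08 in the iPSCs, against 2.96 in KB10973 fibroblasts and 3.10 in KB10460 fibroblasts. The groups overlapped at both, with differences of 0.07 and -0.03. With values under 5 and no detection call, it is not known whether either cell type gave a signal above background with these human probes.

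TAGLN (transgelin), an actin-bundling protein that marks early smooth muscle, ran at 9.17, 9.42 and 9.94 in the iPSCs, against 8.29 in KB10973 fibroblasts and 7.86 in KB10460 fibroblasts. It was well expressed in both cell types, with every colony above both fibroblast cultures and a difference of 1.39. CNN1, the calponin of smooth muscle, ran at 6.88, 7.55 and 7.82 in the iPSCs, against 4.95 in KB10973 fibroblasts and 5.93 in KB10460 fibroblasts. Its groups did not overlap either, and its difference was 2.01, although the 2 fibroblast cultures were themselves far apart. MYL9, the regulatory light chain that is phosphorylated to start contraction in smooth muscle, was at 4.86, 4.99 and 5.28 in the iPSCs, against 3.66 in KB10973 fibroblasts and 3.71 in KB10460 fibroblasts. All colonies were above the fibroblasts by a difference of means of 1.38, but the iPSC values lay around the mark for low signal.

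TPM1 and TPM2 encode tropomyosins, which coil along the actin filament, and both make muscle and non-muscle forms by alternative splicing. TPM1 was read by 4 probe sets. At 206116_s_at it ran at 9.67, 9.87 and 10.09 in the iPSCs, against 8.09 in KB10973 fibroblasts and 8.38 in KB10460 fibroblasts. At 206117_at it ran at 6.85, 7.50 and 7.87 in the iPSCs, against 4.62 in KB10973 fibroblasts and 6.11 in KB10460 fibroblasts. At 210986_s_at it ran at 9.50, 9.80 and 10.01 in the iPSCs, against 8.74 in KB10973 fibroblasts and 9.28 in KB10460 fibroblasts. The colonies lay above both fibroblast cultures at these 3 probe sets, by differences of 1.63, 2.07 and 0.76. At the fourth, 210987_x_at, the iPSC values of 9.34, 9.89 and 10.25 overlapped the fibroblasts, which were at 8.71 in KB10973 and 9.42 in KB10460. Here only KB10460 colony 2 fell below the fibroblasts of KB10460, and without that colony, or without the KB10460 fibroblasts, the groups did not overlap.

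TPM2 went the other way. At 204083_s_at it was at 8.70, 9.02 and 9.26 in the iPSCs, against 10.42 in KB10973 fibroblasts and 10.34 in KB10460 fibroblasts. Every colony lay below both fibroblast cultures, and the difference was -1.38. Its other probe set, 212654_at, was low in all arrays, at 3.80, 4.21 and 4.46 in the iPSCs, against 4.08 in KB10973 fibroblasts and 3.995 in KB10460 fibroblasts, with overlapping groups.

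CALD1 encodes caldesmon, which binds actin, myosin and tropomyosin and also occurs as a short non-muscle form. It was read by 8 probe sets and differed little at most of them. At 212077_at, the CALD1 probe set of highest mean, it ran at 9.81, 10.08 and 10.53 in the iPSCs, against 10.26 in KB10973 fibroblasts and 10.18 in KB10460 fibroblasts. The groups overlapped there, with a difference of -0.10, and they overlapped at 201615_x_at (-0.21), 201616_s_at (-0.05), 201617_x_at (-0.03) and 214880_x_at (-0.01) as well. The 3 remaining probe sets were low in both cell types. Of these, 215198_s_at was at 3.40, 3.58 and 3.70 in the iPSCs, against 4.67 in KB10973 fibroblasts and 4.25 in KB10460 fibroblasts, all colonies below and a difference of -0.91. At 205525_at all colonies lay above the fibroblasts by a difference of only 0.12, and at 215199_at the groups overlapped.

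**Figure D2:**
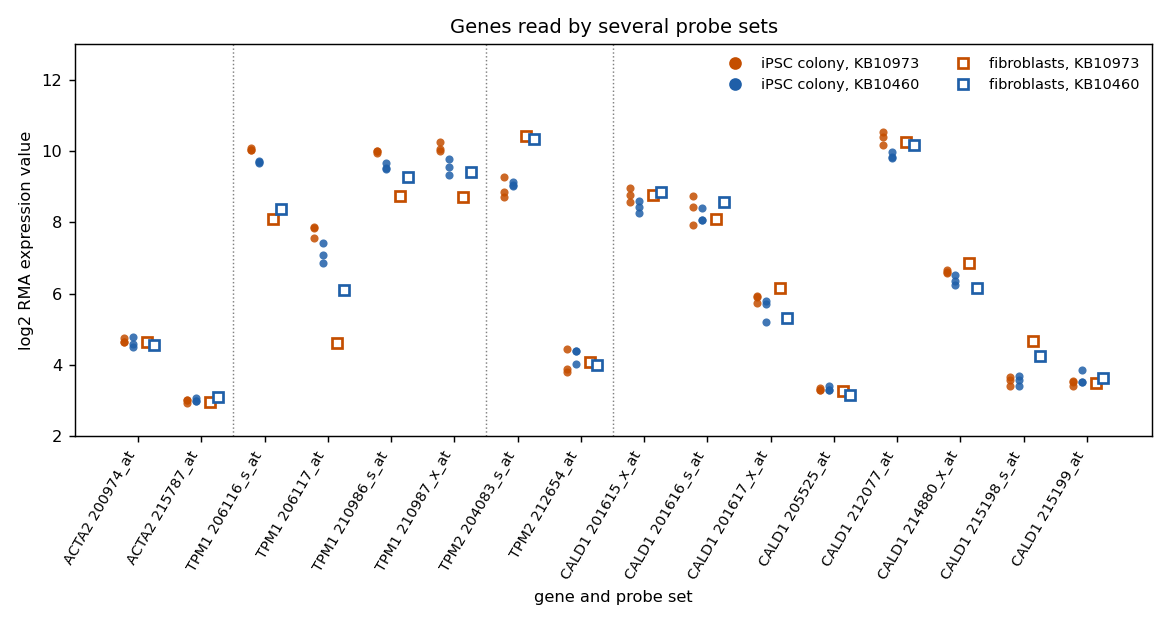
Log2 RMA value in each array (vertical axis) at every probe set of the 4 genes read by more than 1 (horizontal axis); filled circles are iPSC colonies and open squares fibroblast cultures, orange KB10973 and blue KB10460. All 4 TPM1 probe sets have a higher iPSC mean, TPM2 is lower in iPSCs at its bright probe set, and CALD1 differs clearly at a dim probe set alone.

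Counted over probe sets, the iPSC arrays lay wholly above the fibroblasts at 10 of 22 and wholly below at 2, where 19.8% and 18.2% of all probe sets did so. Counted over genes at the probe set with the highest mean, 6 of 10 were wholly above and 1 wholly below, where 23.6% and 19.7% of all genes were. These counts repeat the choice of the genes, and nothing is read from them. The median difference was 4.18 over the 3 striated genes and 0.76 over the 7 smooth-muscle type genes, against -0.00 over all genes. The smallest striated difference, 3.37 for ACTC1, was above the largest smooth-muscle type difference, 2.01 for CNN1, with each gene read at the probe set of highest mean. TPM1 at 206117_at reached 2.07. The genes were chosen and grouped with this contrast in view, so the medians and the separation repeat the choice as well.

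Markers of muscle cells were read beside these genes. Among 10 skeletal muscle markers, including MYOD1, MYOG and the heavy chains MYH2, MYH3 and MYH8, limma called 0, and their mean level was 3.58 to 3.76 in iPSC arrays, against 3.65 to 3.74 in fibroblast arrays. At an iPSC mean of at least 5 was only 1 of the 10, the alpha actinin ACTN3, at 5.15 ± 0.11 (SD, n = 6) in iPSCs and 4.83 in fibroblasts. Of the cardiac markers 9 were measured, and 2 were higher in iPSCs, MYL7 and TNNI3; the list's mean level was 4.09 to 4.45 in iPSC arrays, against 3.71 to 3.90 in fibroblast arrays. Of the smooth muscle markers 5 were measured, and 1 was higher, ACTG2, while MYH11, LMOD1, SMTN and DES had means under 5 in both cell types. That list's mean level was 4.35 to 4.91 in iPSC arrays, against 4.06 to 4.08 in fibroblast arrays.

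The other genes of the contractile apparatus and of its control were then examined with limma over all probe sets, at a fold over 1.5 and an adjusted p under 0.05. Over all genes, 15.2% were called higher and 11.5% lower in iPSCs. Of 34 other sarcomere genes measured, 5 were higher, 1 was lower and 28 were not called, so that the shares called lie near or under those of all genes. TNNI3, the inhibitory troponin of the heart, had the largest difference, 2.55 (limma adjusted p = 5.71e-05). It was at 5.49 to 6.52 in the iPSCs, against 3.12 in KB10973 fibroblasts and 3.42 in KB10460 fibroblasts. TNNC1, the calcium-binding troponin of slow and cardiac muscle, differed by 1.94 (limma adjusted p = 0.000633). MYL7, the atrial regulatory light chain, differed by 1.87 (limma adjusted p = 0.00749). ANKRD1, a stretch-responsive cofactor of the heart, differed by 1.28 (limma adjusted p = 0.0322), from values of 3.73 to 5.16 in the iPSCs, against 2.77 in KB10973 fibroblasts and 3.10 in KB10460 fibroblasts. TMOD1, which caps the pointed ends of actin filaments, was lower by a difference of -0.82 (limma adjusted p = 0.000266). The call of MYL7 was lost without the KB10973 fibroblasts (adjusted p = 0.0776) and that of ANKRD1 without either fibroblast culture (0.0903 without KB10460, 0.168 without KB10973) or without KB10973 colony 3 (0.0526). Without the KB10460 fibroblasts 3 sarcomere genes were called higher, and without the KB10973 fibroblasts 2.

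Of 31 other smooth-muscle and stress-fibre genes measured, 6 were higher, 5 lower and 20 not called. ACTG2, the gamma actin of visceral smooth muscle, stood at 7.32 to 9.09 in the iPSCs, against 4.99 in KB10973 fibroblasts and 4.61 in KB10460 fibroblasts (difference 3.34, limma adjusted p = 0.000248). CSRP2, a LIM protein of smooth muscle, differed by 2.55 (adjusted p = 0.000459), the non-muscle myosin heavy chain MYH10 by 2.01 (adjusted p = 4.6e-05) and vinculin (VCL), which ties actin to adhesions, by 1.04 (adjusted p = 0.00248). On the lower side, MYLK, the kinase that phosphorylates the myosin light chain, was at 3.98 to 4.27 in the iPSCs, against 5.22 in KB10973 fibroblasts and 7.33 in KB10460 fibroblasts. Its difference was -2.13 (adjusted p = 0.00408), and -1.08 without the KB10460 fibroblasts (adjusted p = 0.000628). The LIM protein FHL2 differed by -1.89 (adjusted p = 0.0215) and the non-muscle heavy chain MYH9 by -0.72 (adjusted p = 0.0266). The calls of FHL2 and MYH9 depended on single arrays: that of FHL2 was lost without either fibroblast culture (adjusted p = 0.0637 without KB10460, 0.131 without KB10973) and that of MYH9 without the KB10460 fibroblasts (-0.45, adjusted p = 0.269).

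The paralogs of the chosen genes differed among themselves. The tropomyosin TPM4 was higher by 0.76 (limma adjusted p = 0.0147) and the calponin CNN3 by 0.81 (limma adjusted p = 0.0152), and both calls were lost without the KB10973 fibroblasts (TPM4 0.46, adjusted p = 0.155; CNN3 0.61, adjusted p = 0.135). CNN2 (0.73, adjusted p = 0.0503), TAGLN2 (-0.54, adjusted p = 0.0519) and TAGLN3 (-0.55, adjusted p = 0.115) were not called. TAGLN3 was called lower without the KB10973 fibroblasts (-1.04, adjusted p = 0.0027) and TAGLN2 without KB10460 colony 1 (-0.59, adjusted p = 0.0441). CNN2 was called higher without KB10460 colony 2 (adjusted p = 0.0271) or colony 3 (0.0325), and with the donor as a block (0.0451), low probe sets removed (0.0272), trended and robust moderation (0.0381) or arrays centred on their medians (0.0393). The cytoplasmic beta actin ACTB was higher by 0.73 (limma adjusted p = 0.00241). It was at 12.03 to 12.46 in the iPSCs, against 11.39 in KB10973 fibroblasts and 11.73 in KB10460 fibroblasts. Without the KB10973 fibroblasts the difference was 0.56, under the fold. Its control probe sets for the 3' end, middle and 5' end differed by 0.80, 1.21 and 1.54. At the 3' end the KB10460 fibroblasts lay above the KB10973 fibroblasts (11.11 against 10.71). At the 5' end the KB10460 fibroblasts had the lowest value of all arrays, 7.201, against 8.07 in KB10973 fibroblasts and 9.02 to 9.33 in the iPSCs. Whether RNA quality or labelling differed in the KB10460 fibroblast array was not tested, which bears on every result that depends on this array. The counts of the stress-fibre list moved with the fibroblast cultures, to 8 higher and 2 lower without KB10460 and to 4 higher and 8 lower without KB10973.

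Of 27 genes for cytoplasmic actin and actin turnover, 9 were higher, 7 lower and 11 not called. The formin DIAPH2, which lengthens actin filaments, differed by 4.03 (limma adjusted p = 0.000224), the bundling protein FSCN1 by 2.57 (7.4e-06) and the membrane linkers EZR and RDX by 1.82 (0.000124) and 1.41 (0.01). Lower in the iPSCs were gelsolin (GSN), which cuts actin filaments, by a difference of -3.14 (limma adjusted p = 1.97e-05), CAP2 (-2.35, adjusted p = 2.02e-06), the cross-linker LIMA1 (-2.07, adjusted p = 0.000419) and the Arp2/3 subunit ARPC1B (-1.51, adjusted p = 1.5e-05). RDX was at 0.77 without the KB10460 fibroblasts (adjusted p = 0.114).

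Among 17 regulators measured, 3 were higher, 2 lower and 12 not called. The factor SRF itself differed by 0.72 (limma adjusted p = 0.00537), a call lost without the KB10460 fibroblasts (0.51, adjusted p = 0.0715). GATA6, a factor of heart and endoderm, ranged from 5.88 to 9.03 among the iPSC colonies, against 3.79 in KB10973 fibroblasts and 3.47 in KB10460 fibroblasts (difference 3.94, limma adjusted p = 0.00669). Its adjusted p was 0.0524 without the KB10460 fibroblasts. TEAD4, a factor of the Hippo pathway, was higher by 1.59 (limma adjusted p = 0.000226). The muscle factors MEF2A and MEF2C were lower, by differences of -2.22 (5.99e-06) and -1.66 (2.28e-05). Without the KB10460 fibroblasts 1 regulator was called higher.

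Each donor is a single animal, however many colonies it gave. With the colonies averaged within each donor, the calls of MYL7, MYLK, FHL2, MYH9, TPM4, CNN3, RDX and SRF were lost (limma adjusted p 0.0621 to 0.17). Averaging left 4 genes called higher and 2 lower in the stress-fibre list. With arrays weighted by quality, those of ANKRD1, FHL2, MYH9 and CNN3 were lost (limma adjusted p 0.0548 to 0.101). Of the genes named in these lists and read by more than 1 probe set, TMOD1, VCL, TPM4, DIAPH2, EZR, RDX, GSN, CAP2, SRF and MEF2C each had at least 1 other probe set that was not called.

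**Figure D3:**
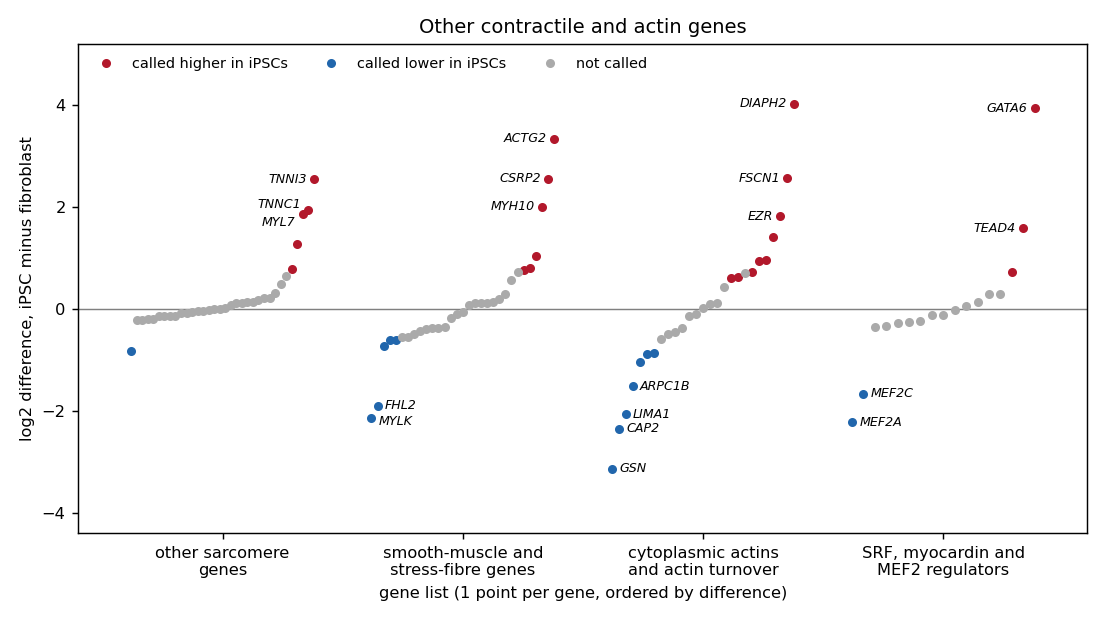
Log2 difference, iPSC minus fibroblast (vertical axis), of each measured gene in 4 lists (horizontal axis), at the probe set with the highest mean; red points were called higher and blue points lower in iPSCs by limma, and grey points were not called. The sarcomere list is mostly grey and near 0 (28 of 34 not called), while the actin list has 9 called higher and 7 called lower.

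The colonies of the 2 donors were compared next. The rule for choosing the genes did not use this contrast, although earlier results of these data were known. No gene was called. Read at the probe set of highest mean, 5 of the 7 smooth-muscle type genes had all KB10973 values above all KB10460 values, where 8.14% of all genes did. The striated genes did not share a direction. ACTC1 had the widest gap, with 9.30, 9.86 and 9.93 in KB10973 colonies 1 to 3, against 8.35, 8.05 and 8.67 in KB10460 colonies 1 to 3. The colonies did not overlap, and the means were 9.70 ± 0.34 (SD, n = 3) and 8.35 ± 0.31 (SD, n = 3), a difference of 1.34 with a standard error of 0.21 (limma adjusted p = 0.0788). ACTA1 ran the other way, with 9.52, 10.06 and 10.16 in KB10973 colonies, against 10.16, 10.22 and 10.41 in KB10460 colonies (difference -0.35, limma adjusted p = 0.549). TNNT1 overlapped between the donors (difference -0.14, limma adjusted p = 0.752).

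TAGLN was at 9.51, 9.61 and 9.94 in KB10973 colonies, against 9.32, 9.22 and 9.17 in KB10460 colonies (difference 0.45, standard error 0.12, limma adjusted p = 0.267). CNN1 was at 7.55, 7.69 and 7.82 in KB10973 colonies, against 7.55, 6.88 and 7.18 in KB10460 colonies (difference 0.48, standard error 0.17, limma adjusted p = 0.382). The donors' TAGLN values were apart, while the CNN1 ranges all but touched. MYL9 was at 5.01, 5.27 and 5.28 in KB10973 colonies, against 4.98, 4.96 and 4.86 in KB10460 colonies (difference 0.25, limma adjusted p = 0.451).

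TPM1 had higher values in all KB10973 colonies at each of its 4 probe sets, by 0.34 to 0.63. At 206116_s_at it was at 10.03, 10.01 and 10.09 in KB10973 colonies, against 9.73, 9.69 and 9.67 in KB10460 colonies, and this small difference of 0.34 was 4.76 times its standard error (limma adjusted p = 0.166). CALD1 at 212077_at was at 10.18, 10.40 and 10.53 in KB10973 colonies, against 9.98, 9.84 and 9.81 in KB10460 colonies (difference 0.49, limma adjusted p = 0.182). At 214880_x_at the KB10973 colonies were also all above (difference 0.24, limma adjusted p = 0.453). The donors overlapped at every other CALD1 probe set, among them 201615_x_at (0.32), 201616_s_at (0.19) and 201617_x_at (0.28). TPM2 (-0.12) and ACTA2 (0.06) overlapped between the donors.

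**Figure D4:**
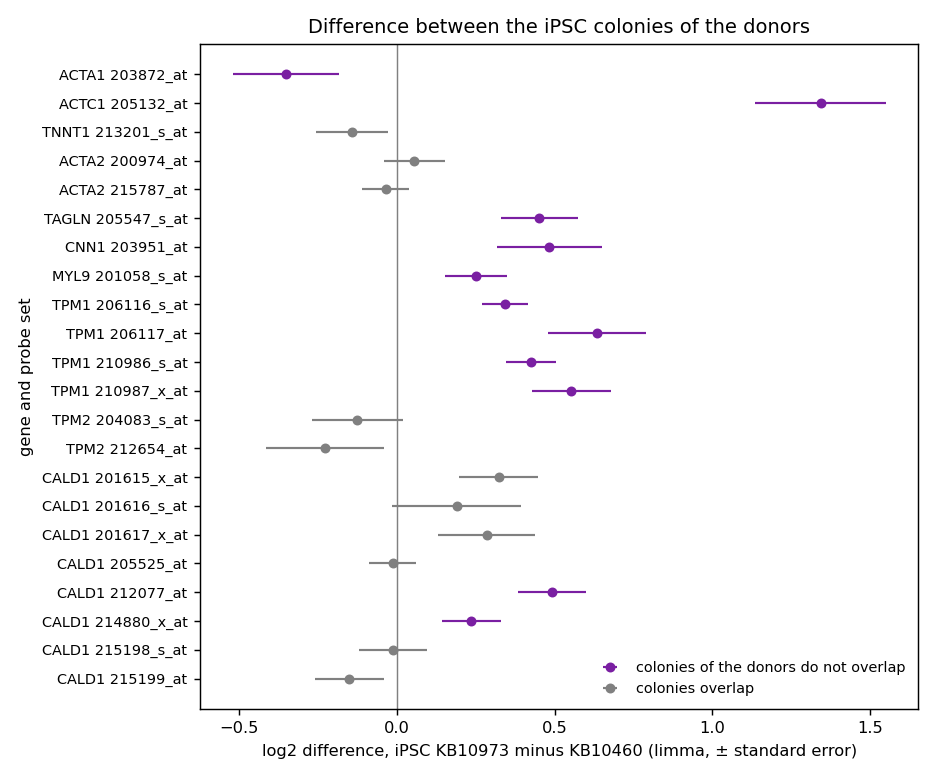
Log2 difference between iPSC colonies, KB10973 minus KB10460, with its standard error from limma (horizontal axis, n = 3 colonies each), for all 22 probe sets (vertical axis). Purple marks probe sets at which the donors' colonies do not overlap and grey those at which they do; ACTC1 lies farthest to the right at 1.34, and all 4 TPM1 probe sets lie to the right of 0.

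Of the 22 probe sets, limma called 0 at a fold over 1.5 and an adjusted p under 0.05, where 0.0898% of all probe sets were called. With variances moderated by a trend and robustly it called 1, ACTC1 (adjusted p = 0.0197; over all alternatives 0.0197 to 0.351). At an unadjusted p under 0.05 were 11, all with higher values in KB10973, where 10.2% of all probe sets were, 5.18% with higher values in KB10973. They belong to 6 genes, since 4 read TPM1 and 3 read CALD1. All KB10973 colonies lay above all KB10460 colonies at 10 probe sets, where 7.59% of all did, and below at 1, where 7.1% did. The mean was higher in KB10973 at 14 of 22, against 52.4% of all. Of the 16 probe sets with an iPSC mean of at least 5, 10 had KB10973 wholly above, where 9.4% of all such probe sets did. Over genes the count was 6 of 10, against 8.14% of all genes. The median difference was 0.45 over the smooth-muscle type genes and -0.14 over the striated genes, against 0.01 over all genes. Probe sets of a gene share its RNA, and the genes share colonies, so these are not independent counts.

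The same KB10973 colonies set the ends of the range in each of those 6 genes. Colony 1 had the lowest and colony 3 the highest KB10973 value in 6 of 6, read at the probe set of highest mean, as in 16.6% of the 974 genes with all KB10973 colonies above. The 6 genes share the same colonies and do not count separately. For MYL9, colonies 2 and 3 were nearly equal (5.27 and 5.28). Other TPM1 probe sets had another order, with colony 3 lowest at 206117_at (7.57) and colony 2 lowest at 206116_s_at (10.01). For CALD1, colony 2 was highest at 201616_s_at (8.75), 201617_x_at (5.92) and 214880_x_at (6.66), while 201615_x_at kept the order. Over the 9 skin fibroblast markers, the mean level was 4.92 to 5.08 in KB10973 colonies, against 4.55 to 4.83 in KB10460 colonies. That mean includes THY1, which was higher in iPSCs than in fibroblasts. Of those markers 2 had all KB10973 colonies above, the collagens COL1A1 (difference 0.76, limma adjusted p = 0.0355) and COL3A1 (difference 0.94, limma adjusted p = 0.0869), whereas DCN (0.01) and LUM (-0.03) overlapped. Whether cells with fibroblast markers had a part in the donor difference was not tested. The animals differ in sex and age as well as in identity, which cannot be told apart with 1 animal each, and the spread behind the p-values is that of colonies from a single animal.

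In the other stress-fibre genes, 8 of 31 had all KB10973 colonies above and 2 all below, where 8.14% and 7.16% of all genes did, and limma called 0. Among the named genes FHL2 differed by 1.33 (limma adjusted p = 0.135), ACTG2 by 1.06 (0.15), MYH9 by 0.48 (0.0909), VCL by 0.40 (0.386), TAGLN3 by 0.29 (0.373) and MYLK by 0.20 (0.473), with CSRP2 at -0.86 (0.232) and CNN3 at -0.45 (0.276) the other way. The remaining 2 genes above, CSRP1 (0.96, 0.223) and ACTN1 (0.38, 0.309), were named after their values were seen. Of the 34 other sarcomere genes 3 had all KB10973 colonies above and 0 below, a share near that of all genes. Of the actin turnover genes 0 were above and 3 below, among them DIAPH2, lower in KB10973 colonies by a called difference of -1.40 (limma adjusted p = 0.0211). Of the regulators 0 were above and 1 below, TEAD4 (-0.32, limma adjusted p = 0.552).

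Last, the iPSC minus fibroblast change was compared between the donors, with each donor's 3 colonies set against its own fibroblast array. TPM1 had a larger change in KB10973 at all 4 probe sets. At 206117_at the change was 3.14 in KB10973 and 1.01 in KB10460, a difference of 2.13 with a standard error of 0.31 (limma adjusted p = 0.0142). At 210986_s_at the changes were 1.25 in KB10973 and 0.28 in KB10460 (difference 0.97, limma adjusted p = 0.0228). At 210987_x_at they were 1.40 in KB10973 and 0.13 in KB10460 (difference 1.26, limma adjusted p = 0.043). These 3 were the probe sets called out of 22, where 2.91% of all probe sets were called, and 7 of 22 were at an unadjusted p under 0.05, where 15.2% of all were. The 3 read a single gene, and the 7 include all 4 TPM1 probe sets, so these are not independent counts. At 206116_s_at the changes of 1.95 in KB10973 and 1.32 in KB10460 were not called apart (limma adjusted p = 0.0714).

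The TPM1 difference combines the gap between the fibroblast arrays with the gap between the colonies. At 206117_at the KB10973 fibroblasts lay below the KB10460 fibroblasts by a difference of -1.49, while the KB10973 colonies were above by 0.63. The colony gap was not called (limma adjusted p = 0.22). The fibroblast gap sets 1 array against 1 and was not tested. CNN1 had changes of 2.74 in KB10973 and 1.28 in KB10460 (difference 1.46, limma adjusted p = 0.07), with a fibroblast difference of -0.98, and was called without KB10460 colony 1, with weighted arrays and with trended and robust moderation. ACTC1 had changes of 4.15 in KB10973 and 2.59 in KB10460 (difference 1.56, limma adjusted p = 0.109). ACTA1 changed by 7.08 in KB10973 and 6.93 in KB10460, TNNT1 by 4.09 in KB10973 and 4.26 in KB10460, and TAGLN by 1.40 in KB10973 and 1.37 in KB10460, so that these 3 differed between the donors by no more than 0.17.

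**Figure D5:**
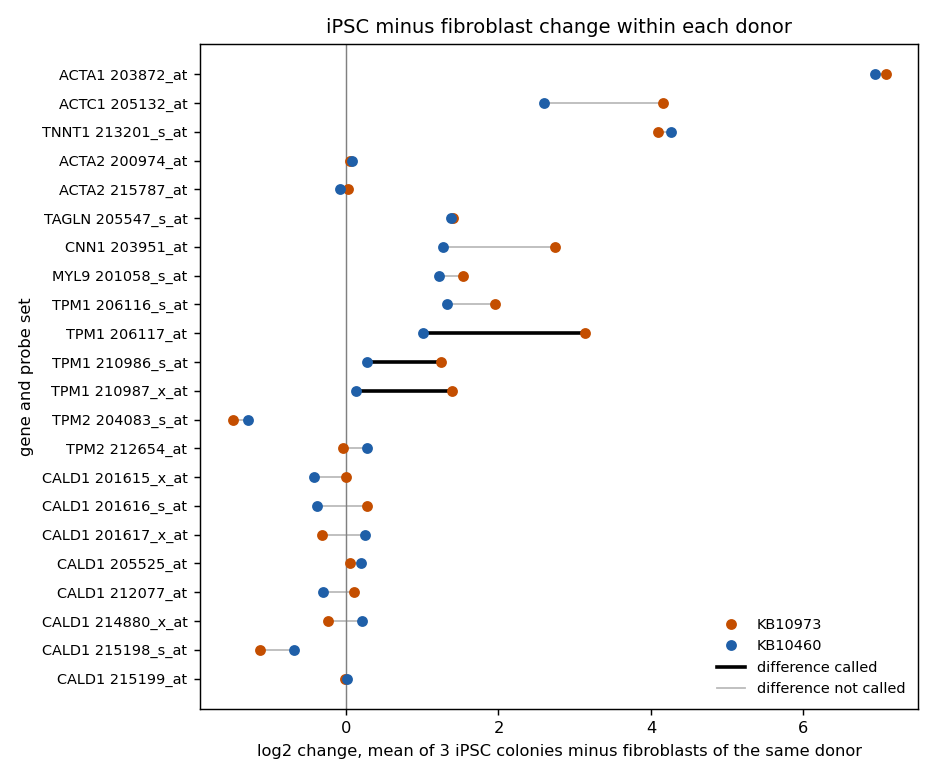
Log2 change from fibroblasts to iPSCs within each donor (horizontal axis; mean of 3 colonies minus 1 fibroblast array) for all 22 probe sets (vertical axis), orange KB10973 and blue KB10460. Black lines join pairs whose difference limma called, at 3 TPM1 probe sets, and grey lines those it did not call; the ACTA1, TNNT1 and TAGLN points of the donors lie close together.

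Each donor had 1 fibroblast array, which the test takes to vary like a colony. The call at 206117_at was lost without KB10973 colony 1 (adjusted p = 0.0505) and held in 11 of 12 alternatives (adjusted p 0.00414 to 0.0505), that at 210986_s_at in 7 of 12 (0.0148 to 0.0637) and that at 210987_x_at in 5 of 12 (0.0165 to 0.0988).

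The genes with the most similar profiles were found by the root mean square difference of centred log2 values over the 8 arrays, among 11953 other genes. Nearest to ACTA1 were LIN28A (0.22), POU5F1P3 (0.36) and CD24 (0.38). POU5F1P3 is the symbol given by the platform annotation, and whether its probe set also reads POU5F1 RNA was not tested. LIN28A, an RNA-binding protein of pluripotent cells, averaged 10.43 in iPSCs and 3.28 in fibroblasts. Nearest to ACTC1 were its paralog ACTG2 (0.35), LIMCH1 (0.45) and the cell cycle kinase WEE1 (0.47), and nearest to TAGLN were SERINC5 (0.11), DHRS7B (0.14) and NVL (0.14). The neighbours of the low and flat ACTA2, TBC1D22A (0.03), IGSF6 (0.03) and CLEC5A (0.04), were flat as well. These distances are a description, since the 8 arrays share the same cell type contrast.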

How the data were processed

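Total RNA of 8 orangutan cultures was labelled and hybridized by the authors, who normalized the arrays together by RMA in the WebArray software (version not given in the sources used here) and deposited log2 values. RMA equalizes the distributions of the arrays, so a shift shared by most transcripts is not seen. The probes match human transcripts, and mismatches to orangutan RNA can lower a signal. No column was without a sample (0). Genes were named from the 19070 probe sets with a single symbol in the platform annotation, leaving out 1043 with several symbols and 2164 without.

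From the deposited log2 values, limma 3.58.1 (R 4.3.3, lmFit and eBayes, two-sided, no block) was fitted over all 22277 probe sets, with calls at a 1.5-fold change and a p, adjusted by Benjamini-Hochberg, under 0.05. Lists were read at the probe set with the highest mean. The number of arrays limits the precision. Of 124 listed genes, 109 had a probe set of their own, which is what measured means for the lists and markers here. The text names every chosen gene and, per list, the 4 genes called with the largest change each way and any paralog of the actin, tropomyosin, transgelin, calponin and caldesmon families, apart from 1 gene called lower in the stress-fibre list, which is counted in the totals and is not reported here. The chosen genes and the lists were selected with earlier results of these data known. The scripts were tested on simulated data.

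Cells of a donor come from 1 animal, so the donor pairs the arrays, although the donor difference in iPSCs and that in fibroblasts correlated at 0.02 across probe sets. Alternatives changed the block, weights, moderation, centring, filter and probe set rule, averaged colonies and left out each array.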

Additional observations from a re-analysis of the deposited data

Results flagged for a closer look

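KB10460 colony 2 stood apart from the other iPSC colonies at 2 CALD1 probe sets. It was at 5.21 at 201617_x_at, where the other colonies lay between 5.71 and 5.92, and at 3.86 at 215199_at, a low probe set at which the others lay between 3.41 and 3.54. Chance alone sets a sample apart in this way in about 1 of 20 groups.

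The iPSC minus fibroblast change of TPM1 differed between the donors by 2.13 at 206117_at, 0.97 at 210986_s_at and 1.26 at 210987_x_at (limma adjusted p = 0.0142, 0.0228 and 0.043), larger in KB10973 each time, with 1 fibroblast array per donor. At the CALD1 probe set 214880_x_at all 3 KB10973 colonies lay below the fibroblasts of their donor (change -0.23) and all 3 KB10460 colonies above theirs (change 0.21). That difference of -0.44 was not past the threshold (limma adjusted p = 0.321).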

How the results depend on the processing

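No call reversed, while differences near 0 changed sign between settings: -0.46 to 0.40 for CALD1 at 201617_x_at, -0.35 to 0.33 at 214880_x_at, -0.29 to 0.18 at 201616_s_at and -0.06 to 0.06 at 215199_at, and -0.10 to 0.05 for ACTA2 at 215787_at. For the chosen genes, the number of genes with all iPSC arrays above the fibroblasts was 6 to 7 when each array was left out, and 7 without the KB10460 fibroblasts or without KB10460 colony 2. Between the donors, the 0 calls stayed at 0 to 0 without single colonies and became 1 with a trended and robust moderation. The 3 calls of a donor difference in the change ranged from 0 to 4 without single colonies: 0 without KB10973 colony 1, 1 without KB10973 colony 2, KB10973 colony 3 or KB10460 colony 3, 2 without KB10460 colony 2 and 4 without KB10460 colony 1. Averaging KB10973 colonies 1 and 2 left 1. Over the 4 other lists, 23 genes called higher and 15 called lower became 16 to 25 and 14 to 18 without single arrays, and requiring every probe set of a gene to be called the same way left 17 and 8. The causes of these changes were not tested. With the donor as a replicate block, 25 were called higher and 15 lower, which added CNN2 among the named genes (adjusted p = 0.0451) and changed no other named call. Colony numbers are not a pairing: with the colony number as a replicate block the donor comparison had 0 calls. Without 1 fibroblast array, the other is assumed to vary like the colonies, and the donor difference in the change could not be fitted. Array values have no count depth, and signals under 5 bound what can be read from ACTA2, MYL9 and the dim CALD1 and TPM2 probe sets.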
